A study of Mus musculus with 6 samples.

Results

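Expression of 10 transcription factor genes that set the fate of B cells, *Bcl6*, *Bach2*, *Mef2b*, *Spib*, *Irf8*, *Pax5*, *Ebf1*, *Irf4*, *Xbp1* and *Prdm1*, was examined in GC B cells that had or lacked the IL-21 receptor. The genes were chosen by name as regulators of GC and plasma cell (PC) fate and were found by Entrez identifier, all 10 of them, among the 27179 genes of the deposited count table. The data were 6 RNA-seq libraries of spleen GC B cells from C57BL/6 mice immunized with NP-KLH in alum, taken 7, 10 and 14 days later, with 1 WT and 1 *Il21r*-/- library per day. Cells had been sorted as NP-binding, IgG1+, B220+ and CD38-, with CD138+ cells, which include PC, gated out along with IgM+, IgD+ and Gr1+ cells. The methods state that mice, for nearly all experiments, were irradiated Ly5.1 hosts given WT or *Il21r*-/- bone marrow, so that the receptor was missing from all donor-derived blood cells, T cells included, and host cells that survived irradiation kept it. The labels give neither this nor age or sex. Per the labels each library came from a separate mouse, whereas the methods, and the account of the day 7 sort, describe several mice per genotype, so the sources differ on the number of mice behind a library. The 3 libraries of a genotype differ in day as well as in mouse, and an SD over them holds both. In bulk libraries, fewer cells that express a gene cannot be told apart from less RNA per cell.

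GC B cells and PC are held in opposing transcriptional states. Bcl-6, encoded by *Bcl6*, is the repressor that defines the GC state, Bach2 restrains PC differentiation, and Mef2b is an activator of *Bcl6*. Pax5 and Ebf1 maintain B cell identity, and Spi-B and IRF8 act with them in GC B cells. IRF4 at high level initiates PC differentiation, Blimp-1, encoded by *Prdm1*, silences the B cell programme, and Xbp1 builds the secretory machinery of PC. IL-21, the cytokine that binds the deleted receptor, signals mainly through STAT3.

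Promoter sequences of the members came from RefSeq on GRCm38.p6, which listed 13 windows for the 10 genes, each from 250 bases before to 50 bases after a start site. Because the receptor signals through STAT3, the windows were searched on both strands for the STAT motif TTCNNNGAA, and also for the interferon response element (GAAA, any 2 bases, GAAA), the composite ETS-IRF element (GGAA, any 2 bases, GAAA) and the Bcl-6 core TTCCTNGAA, every match of which also contains the STAT motif. The STAT motif was found in windows of *Bcl6*, *Bach2* and *Irf8*, in 4 windows of 3 members, and in 8.3% of all 32851 promoter windows. The ETS-IRF element was found in a *Bcl6* and a *Bach2* window, against 2.72% of all windows, the interferon element in an *Ebf1* window (3.44% of all), and the Bcl-6 core in a *Bcl6* window (1.59% of all). No match for these letters lay in the windows of *Prdm1*, *Pax5*, *Xbp1*, *Irf4*, *Mef2b* or *Spib*. The stretches below, 5′ to 3′ on the strand of the gene, hold the matches in *Bcl6*, *Bach2* and *Irf8*, with matched bases in capitals. The *Bcl6* stretch with 4 matched sites (chr16:23981284-23981471, minus strand) lies in an intron of a longer *Bcl6* transcript, and so do both *Bach2* stretches (chr4:32417275-32417323 and chr4:32417398-32417434, plus strand) for *Bach2*. The second *Bcl6* stretch (chr16:23988942-23988990, minus strand) and that of *Irf8* (chr8:120736167-120736233, plus strand) lie upstream of the gene.
Bcl6, inner start: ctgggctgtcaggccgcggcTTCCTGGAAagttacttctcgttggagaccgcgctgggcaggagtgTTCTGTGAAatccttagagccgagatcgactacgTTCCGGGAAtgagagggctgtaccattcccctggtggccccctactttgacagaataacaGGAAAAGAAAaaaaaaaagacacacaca
Bcl6, outer start: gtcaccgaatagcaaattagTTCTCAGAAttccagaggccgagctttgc
Bach2, STAT motif: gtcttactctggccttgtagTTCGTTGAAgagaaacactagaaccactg
Bach2, ETS-IRF element: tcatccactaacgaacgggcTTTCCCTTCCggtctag
Irf8: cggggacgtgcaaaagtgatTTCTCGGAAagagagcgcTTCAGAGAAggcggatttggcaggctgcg

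The 3 members with a genotype difference over 3 days, described next, are shown by the 150 bases before their start site, which hold none of the motifs searched. *Prdm1* is shown from chr10:44458749-44458898 (minus strand, in an intron of a longer transcript), *Pax5* from chr4:44710695-44710844 (minus strand) and *Xbp1* from chr11:5520491-5520640 (plus strand), both upstream of the gene.
Prdm1: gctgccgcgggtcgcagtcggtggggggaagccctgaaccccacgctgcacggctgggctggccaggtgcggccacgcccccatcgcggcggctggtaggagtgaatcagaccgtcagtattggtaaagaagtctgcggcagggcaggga
Pax5: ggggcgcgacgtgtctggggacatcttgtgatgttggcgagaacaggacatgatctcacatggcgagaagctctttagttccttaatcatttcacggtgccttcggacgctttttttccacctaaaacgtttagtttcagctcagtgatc
Xbp1: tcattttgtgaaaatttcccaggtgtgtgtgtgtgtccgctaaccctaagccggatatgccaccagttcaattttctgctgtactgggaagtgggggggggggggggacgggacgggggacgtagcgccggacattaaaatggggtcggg

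Libraries held 21353438 to 27435124 reads counted on genes. *Il21r* itself had 244.8 to 343.2 CPM (counts scaled to the TMM-normalized library size) in WT and 105 to 126.6 CPM in *Il21r*-/-, with no overlap. It was thus lower but not absent in *Il21r*-/-, with 2424, 3349 and 2807 counts on days 7, 10 and 14. The source of these reads was not tested. GC B cell markers were present in all libraries, with *Fas* at 140 to 195 CPM, whereas the T cell gene *Cd3e* did not exceed 0.093 CPM. The T cell list summed to 86.1 to 121.2 CPM in WT and 81.5 to 116.7 in *Il21r*-/-, nearly all of it *Lck*, the erythroid list to 9.85 to 18.8 and 4.76 to 33.4 CPM, and the myeloid list to 8.39 to 14.2 and 12.1 to 19.7 CPM, of which *Cd68* was called, higher in *Il21r*-/- (adjusted p = 0.0449, edgeR). Markers of naive and memory B cells moved with genotype: 5 of 9 naive or follicular B cell genes tested (among them *Ccr7*, *Fcer2a*, *S1pr1* and *Klf2*) and 4 of 7 memory genes tested (*Gpr183*, *Cd80*, *Ccr6* and *Pdcd1lg2*) were higher in *Il21r*-/-, while *Ighm* and *Nt5e* were higher in WT. These lists summed to 563.2 to 1224 and 70.4 to 104 CPM in WT and to 941.9 to 1468 and 105.9 to 147.6 CPM in *Il21r*-/-. Of all tested genes, 5.92% were called over 3 days in either direction. A list of 12 light zone (LZ) genes had a mean log2 CPM of 5.08 to 5.37 in WT and 5.87 to 6.01 in *Il21r*-/-, and a list of 12 dark zone (DZ) genes 7.91 to 8.24 in WT and 7.74 to 7.87 in *Il21r*-/-. Neither list overlapped between genotypes. Of the LZ genes *Ccl22* differed most and weighs on the list mean, at 0.484 to 1.115 CPM in WT and 17.7 to 31.2 in *Il21r*-/-. Over 3 days, 10 of the 12 LZ fold changes were negative and 2 positive. The part of these zone and marker shifts in the differences given below was not tested.

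The members spanned a wide range of levels. Per kilobase of the gene length used for counting, *Spib* was the highest, at 308.9 ± 46.4 CPM per kb in WT (SD, n = 3), and *Prdm1* the lowest, at 0.31 ± 0.0422. In WT, *Mef2b* (188.1 ± 32.9) and *Irf8* (174.3 ± 18.9) lay within their spread of each other, and so did *Bcl6* (66.8 ± 9.22) and *Pax5* (65.7 ± 9.06). *Xbp1* lay between these pairs at 119.3 ± 10.3, and *Bach2* (24.1 ± 4.66), *Ebf1* (16.4 ± 1.39) and *Irf4* (4.73 ± 0.115) followed below. In *Il21r*-/-, *Pax5* (104.2 ± 18.5) lay above *Bcl6* (56.7 ± 11.5), and *Mef2b* (148.5 ± 24.8) could not be separated from *Xbp1* (155.8 ± 10.8) or *Irf8* (171.0 ± 20.5). All 10 members passed the filter on low counts. *Prdm1* passed it through the WT libraries, with an average log2 CPM of 0.74 in WT and −0.74 in *Il21r*-/- against a limit of 0.

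**Figure D1:**
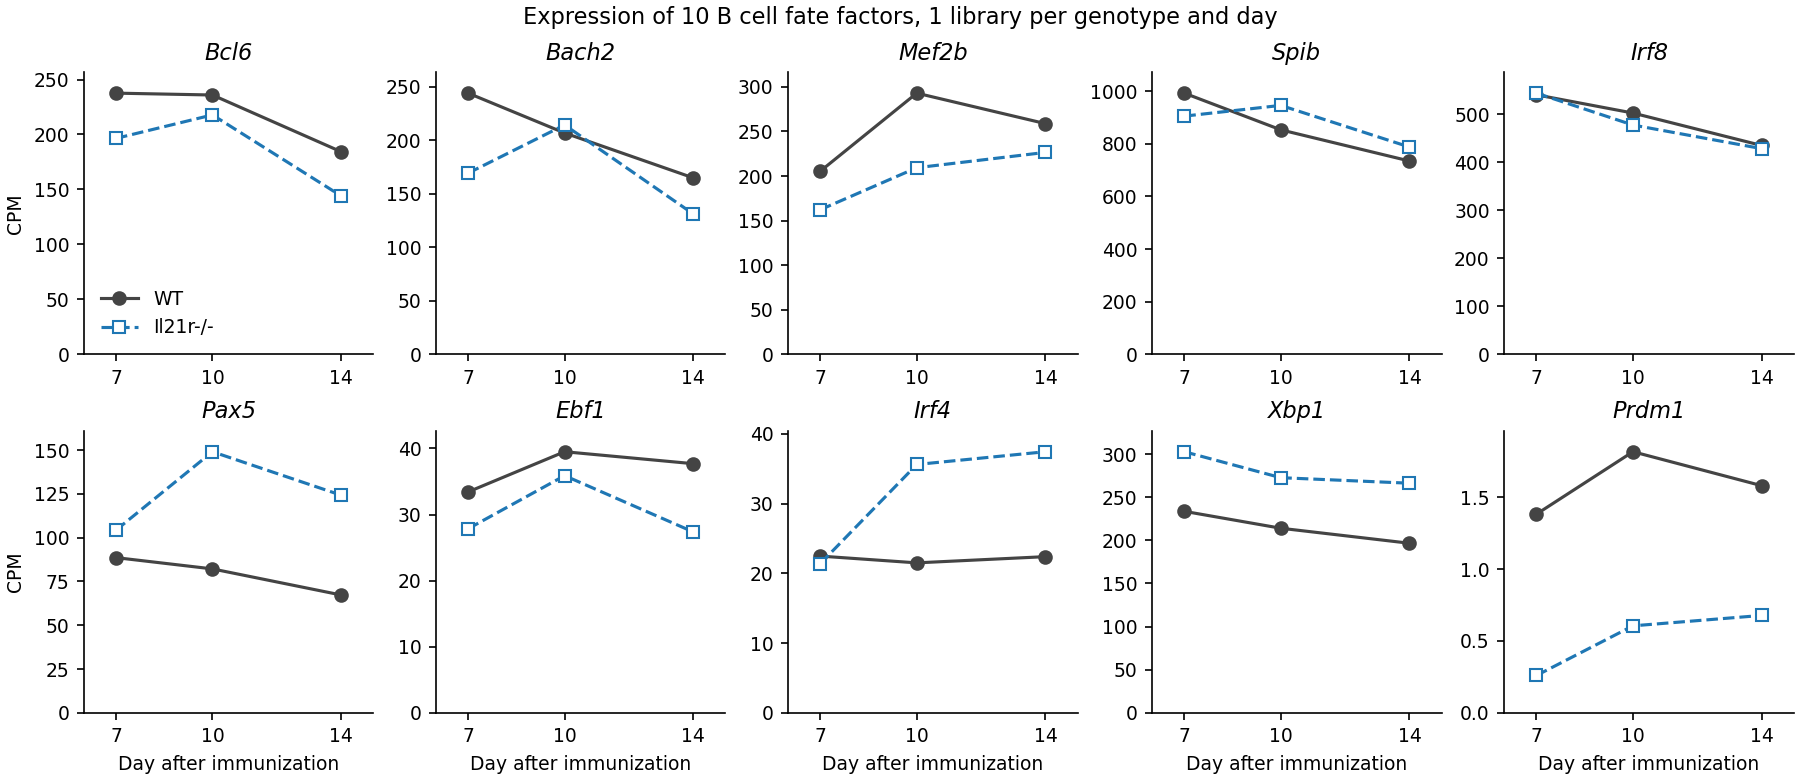
Expression in CPM (vertical axes, each from 0) of the 10 factors by day after immunization in WT (filled circles) and Il21r-/- (open squares), 1 library per point. Pax5 and Xbp1 lie above WT and Prdm1 below WT in Il21r-/- on every day, and Irf4 separates from WT after day 7.

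*Prdm1* (Entrez 12142, chromosome 10, 44437174 to 44528558 of GRCm38), which encodes Blimp-1, was the member with the largest genotype difference. It had 38, 45 and 34 counts in WT on days 7, 10 and 14, and 6, 16 and 17 in *Il21r*-/-. In CPM these were 1.38, 1.82 and 1.58 in WT and 0.26, 0.605 and 0.677 in *Il21r*-/-, so that every WT library lay above every *Il21r*-/- library. WT exceeded *Il21r*-/- 5.32-fold on day 7, 3.001-fold on day 10 and 2.33-fold on day 14. The log2 fold change (WT over *Il21r*-/-, here and throughout) for the 3 days together was 1.64, with a standard error of 0.33 and, by the quasi-likelihood test of edgeR, an adjusted p of 0.0216. Since *Prdm1* passed the filter through the group in which it was high, the test was also run on all genes with any count, where the adjusted p was 0.00333, and with a minimum of 10 counts in every library *Prdm1* was not tested. By edgeR's likelihood ratio test the difference passed the threshold on day 7 (2.39, standard error 0.74, adjusted p = 0.0372), whereas days 10 and 14 missed it (adjusted p = 0.107 and 0.338). The day 7 call was lost with all genes of any count kept (adjusted p = 0.0676, likelihood ratio test) and in DESeq2's Wald test (adjusted p = 0.662). Over 3 days it rested on single libraries, with adjusted p = 0.0573 to 0.0662 (quasi-likelihood test) without any 1 of the WT libraries or of the *Il21r*-/- libraries of days 7 and 14, and 0.00527 without *Il21r*-/- on day 10.

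The PC surface gene *Sdc1* (CD138, excluded by the sort) lay in the same order, at 0.727 to 0.847 CPM in WT and 0.359 to 0.492 in *Il21r*-/-, below the limit for testing. The 8 PC marker genes summed to 3644 to 4110 CPM in WT and 3982 to 5239 in *Il21r*-/-, and 0 of the 5 that were tested were called, with all 5 fold changes negative. With day as a block 2 of the 5 were called by edgeR's quasi-likelihood test, where 22.9% of all genes were. They were *Mzb1* (adjusted p = 0.00871) and *Jchain* (adjusted p = 0.0171), both higher in *Il21r*-/-. Of the sum of the 8 markers, *Jchain*, the joining chain of polymeric antibodies, took 2270 to 2500 CPM in WT and 2440 to 3290 in *Il21r*-/-. *Mzb1* took 1050 to 1320 CPM in WT and 1180 to 1630 in *Il21r*-/-, so that the sum mostly reflects these genes. Of the markers below the limit for testing, *Tnfrsf17* had 0.465 to 0.686 CPM in WT and 0.0797 to 0.606 in *Il21r*-/-. *Fkbp11* had 0.282 to 0.618 and 0.478 to 1.34 CPM. The part of residual PC in the *Prdm1* difference was not tested.

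*Pax5* (Entrez 18507, chromosome 4, 44524748 to 44710694), the factor that commits cells to the B lineage, was higher in *Il21r*-/- than in WT. It had 88.6, 82.2 and 67.3 CPM in WT on days 7, 10 and 14 and 104.3, 149.1 and 124.3 in *Il21r*-/-. The genotypes did not overlap, and the gap was smallest on day 7, where WT held 0.849 of the *Il21r*-/- level, against 0.551 on day 10 and 0.542 on day 14. The log2 fold change over 3 days was −0.67 (standard error 0.15 and quasi-likelihood adjusted p = 0.0387). On single days it was −0.24 (standard error 0.29), −0.86 (0.29) and −0.88 (0.29), with adjusted p = 0.999, 0.0805 and 0.0649 from edgeR's likelihood ratio test. The call over 3 days was lost without WT on day 7 (adjusted p = 0.0729), day 10 (0.0747) or day 14 (0.303), and without *Il21r*-/- on day 14 (0.128, quasi-likelihood test in each case). The gene model used for counting spanned 1208 bases, whereas *Pax5* exons of GENCODE M21 cover 8853 bases, so reads outside that model were not counted, and 636 of the exon bases are shared with 5730488B01Rik on the opposite strand.

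*Ebf1* (Entrez 13591, chromosome 11, 44618100 to 45008096), the partner of Pax5 in B cell commitment, did not share this direction. It had 33.4, 39.5 and 37.7 CPM in WT and 27.9, 35.9 and 27.4 in *Il21r*-/-, higher in WT on each day but with overlapping ranges. Its log2 fold change over 3 days, 0.28 (standard error 0.14 and quasi-likelihood adjusted p = 0.297), did not pass the threshold.

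*Irf4* (Entrez 16364, chromosome 13, 30749233 to 30766981), the dose-dependent driver of PC differentiation, was level in WT, at 22.5, 21.5 and 22.4 CPM on days 7, 10 and 14. In *Il21r*-/- it had 21.4 CPM on day 7, just under the lowest WT library, and then 35.6 and 37.5 CPM on days 10 and 14, above all WT libraries. The day 14 level was 1.75 times the day 7 level in *Il21r*-/- and 0.997 times in WT. The log2 fold change was 0.07 on day 7 (standard error 0.33), −0.73 on day 10 (0.32) and −0.74 on day 14 (0.32), with adjusted p = 0.999, 0.331 and 0.294 from edgeR's likelihood ratio test. For the 3 days together it was −0.48 (standard error 0.17 and quasi-likelihood adjusted p = 0.155). The library of *Il21r*-/- on day 7 decided this value, since without it the log2 fold change was −0.70 (adjusted p = 0.0295, same test).

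*Irf8* and *Spib*, the other factors of this group, were abundant and close between genotypes. *Irf8* (Entrez 15900, chromosome 8, 120736358 to 120756694), which favours the GC state over the PC state, had 541, 503 and 435.4 CPM in WT and 544.5, 478 and 428.8 in *Il21r*-/-. Its log2 fold change over 3 days was 0.03 (standard error 0.09 and quasi-likelihood adjusted p = 0.893). *Spib* (Entrez 272382, chromosome 7, 44525995 to 44532087), an ETS factor of B cells, had 993, 853.5 and 734.9 CPM in WT and 905.6, 946.4 and 788.1 in *Il21r*-/-, and its log2 fold change was −0.04 (standard error 0.11 and quasi-likelihood adjusted p = 0.870). The ranges of the genotypes overlapped for both genes, with *Irf8* lower on each later day.

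*Xbp1* (Entrez 22433, chromosome 11, 5520641 to 5525993), which drives secretory capacity, had 233.6, 214 and 196.6 CPM in WT and 302.7, 272.6 and 266.2 in *Il21r*-/-. All *Il21r*-/- libraries lay above all WT libraries, and WT held 0.772, 0.785 and 0.739 of the *Il21r*-/- level on days 7, 10 and 14. The log2 fold change over 3 days was −0.39 (standard error 0.09 and quasi-likelihood adjusted p = 0.0396). The adjusted p was 0.0518 under DESeq2's size factors and 0.0544 with a minimum of 10 counts, both missing the threshold, and 0.0106 in DESeq2's Wald test and 0.000287 with day as a block. Without 1 library it passed only when *Il21r*-/- on day 10 was left out (adjusted p = 0.00546, against 0.139 to 0.299 without any other, same test). Gene counts do not separate the spliced from the unspliced *Xbp1* mRNA, and only the spliced form encodes the active factor.

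The remaining 3 members, *Bcl6*, *Mef2b* and *Bach2*, had higher values in WT on 3, 3 and 2 of the 3 days, and none was called over 3 days. *Bcl6* (Entrez 12053, chromosome 16, 23965050 to 23988866) had 237.6, 235.9 and 184.3 CPM in WT and 196.4, 217.8 and 144.1 in *Il21r*-/-. It was higher in WT on each day, with overlapping ranges across days, and its log2 fold change over 3 days was 0.24 (standard error 0.12 and quasi-likelihood adjusted p = 0.299). *Mef2b* (Entrez 17259, chromosome 8, 70152761 to 70167488) had 205.4, 293 and 258.8 CPM in WT and 162.2, 209.3 and 226.5 in *Il21r*-/-, again higher in WT on each day (0.35 over 3 days, standard error 0.13 and quasi-likelihood adjusted p = 0.164). *Bach2* (Entrez 12014, chromosome 4, 32238413 to 32586109) had 243.8, 206.6 and 164.7 CPM in WT and 169.1, 214.1 and 131 in *Il21r*-/-, so that the direction on day 10 was opposite to that on days 7 and 14 (0.25 over 3 days, standard error 0.14 and quasi-likelihood adjusted p = 0.367). Of the exon bases of *Bach2*, 5.4% overlap *Bach2os* on the opposite strand, and 4.4% of those of *Mef2b* overlap *Borcs8*. The *Bcl6*, *Bach2*, *Ebf1* and *Mef2b* values rested on *Il21r*-/- on day 10, without which all 4 passed the threshold, with log2 fold changes of 0.36, 0.43, 0.42 and 0.40 (adjusted p = 0.0147, 0.00543, 0.0197 and 0.0394). Without that library 2165 of all genes were called, against 651 with it.

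Over 3 days, 3 of the 10 members were called, *Prdm1*, which passed the filter through WT alone, higher in WT and *Pax5* and *Xbp1* higher in *Il21r*-/-, where 5.92% of the 11005 genes tested were called. The same 3 members had no overlap in CPM between genotypes, and 18.4% of all tested genes had none. The median log2 fold change of the members was 0.13, and that of all tested genes −0.01. On day 7, 1 member (*Prdm1*) was called, with 1.07% of all genes. On days 10 and 14, 0 members were called by edgeR's likelihood ratio test, where 3.1% and 3.28% of all genes were, and 3 and 4 members had an unadjusted p under 0.05. DESeq2's Wald test also called 0 members on these days. The count over 3 days depended on the libraries and on the day term. It was 0 without any 1 of the WT libraries or without *Il21r*-/- on day 14, and 7 without *Il21r*-/- on day 10. Without *Il21r*-/- on day 7 it was 2, *Pax5* and *Irf4*, while *Prdm1* and *Xbp1* were no longer called. Calls over all genes moved as well, from 651 with all libraries to 2165 without *Il21r*-/- on day 10 and to between 132 and 496 without any other library.

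When the libraries of a day were paired by fitting day as a block, 8 of the 10 members were called, but so were 22.9% of all genes. In that fit *Bcl6* (log2 fold change 0.25, adjusted p = 0.0211), *Bach2* (0.27, adjusted p = 0.045), *Mef2b* (0.34, adjusted p = 0.00186), *Ebf1* (0.29, adjusted p = 0.0377) and *Prdm1* (1.64, adjusted p = 0.000394) were higher in WT. *Pax5* (−0.66, adjusted p = 0.00166), *Xbp1* (−0.39, adjusted p = 0.000287) and *Irf4* (−0.47, adjusted p = 0.0384) were higher in *Il21r*-/-. *Irf8* and *Spib* did not pass the threshold in it (adjusted p = 0.820 and 0.764, edgeR's quasi-likelihood test).

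**Figure D2:**
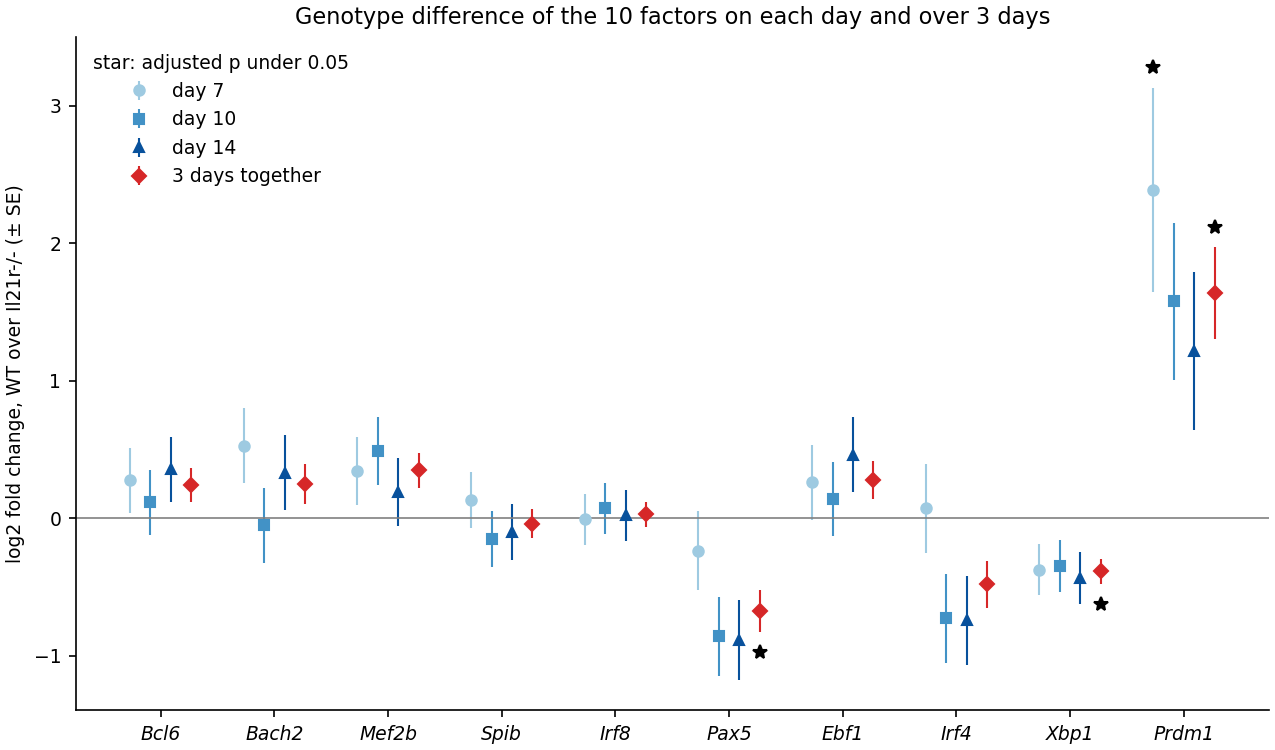
Log2 fold change of WT over Il21r-/- (vertical axis) with its standard error for each factor on days 7, 10 and 14 (blue symbols, 2 libraries each) and over 3 days (red diamonds, 6 libraries). Stars mark an adjusted p under 0.05: Prdm1 on day 7 and over 3 days, and Pax5 and Xbp1 over 3 days.

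The members were next compared over time after immunization. With genotype held, the fitted log2 change from day 7 to day 14 was −0.50 for *Bach2* (standard error 0.18), −0.43 for *Bcl6* (0.15), −0.33 for both *Irf8* (0.11) and *Spib* (0.13), and 0.38 for *Mef2b* (0.16). With a linear effect of day 0 of the 10 members were called by edgeR's quasi-likelihood test, against 4.43% of all genes, 5 had an unadjusted p under 0.05, and DESeq2's Wald test called 0 as well. With day as a block, the comparison of day 14 with day 7 called the same 5 members, where 26.2% of all genes were called. *Bach2* (−0.47, adjusted p = 0.00484), *Bcl6* (−0.41, adjusted p = 0.00234), *Irf8* (−0.33, adjusted p = 0.00649) and *Spib* (−0.32, adjusted p = 0.0116) fell, and *Mef2b* (0.41, adjusted p = 0.00215) rose. In both genotypes the day 14 level of the 4 genes that fell lay below the day 7 level, and was 0.776 of it in WT and 0.734 in *Il21r*-/- for *Bcl6*, and 0.805 and 0.7875 for *Irf8*.

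The difference in day trend between genotypes was tested with an interaction term. For 0 of the 10 members and 0% of all genes did it pass the threshold in edgeR's quasi-likelihood test, with 118 genes at an unadjusted p under 0.05, and DESeq2's Wald test also called 0, with 64 genes at an unadjusted p under 0.05. *Irf4* had the smallest unadjusted p of the members and an interaction, WT minus *Il21r*-/-, of −0.76 (standard error 0.38), with an adjusted p of 0.99995 in edgeR's quasi-likelihood test. *Pax5* had an interaction of −0.61 (standard error 0.36) and *Prdm1* one of −0.98 (standard error 0.80). The separation of *Irf4* from WT after day 7 thus did not pass a test of the difference in trend.

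Ratios between factors of opposing roles were taken within each library, per kilobase, and are given without a test. *Irf4* over *Irf8* was 0.0251, 0.0258 and 0.0311 in WT on days 7, 10 and 14, and 0.0237, 0.045 and 0.0528 in *Il21r*-/-. *Irf4* over *Bcl6* was 0.0664, 0.0639 and 0.0853 in WT and 0.0764, 0.115 and 0.182 in *Il21r*-/-. On day 7 both ratios were close between genotypes, and on days 10 and 14 both were higher in *Il21r*-/-. *Bach2* over *Irf4* was 5.98, 5.3 and 4.05 in WT and 4.36, 3.31 and 1.93 in *Il21r*-/-, lower on each later day in both genotypes. *Pax5* over *Ebf1*, a ratio of factors with a shared role, was 4.935, 3.87 and 3.32 in WT and 6.97, 7.73 and 8.45 in *Il21r*-/-, so that the libraries of the 2 genotypes did not overlap. *Bcl6* over *Prdm1* was 269.2, 203.4 and 182.6 in WT and 1183, 563.7 and 333.1 in *Il21r*-/-. *Pax5* over *Prdm1* was 273, 192.7 and 181.3 in WT and 1709, 1049 and 781.1 in *Il21r*-/-. Both were higher in *Il21r*-/- without overlap, and both divide by *Prdm1*, which had 6 to 45 counts per library. For *Pax5* over *Prdm1* this was fixed by the opposite differences of the 2 genes given above. *Bcl6* over *Prdm1* mostly repeats the *Prdm1* difference, with mean WT over *Il21r*-/- of 1.18 for *Bcl6* and 3.10 for *Prdm1*.

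**Figure D3:**
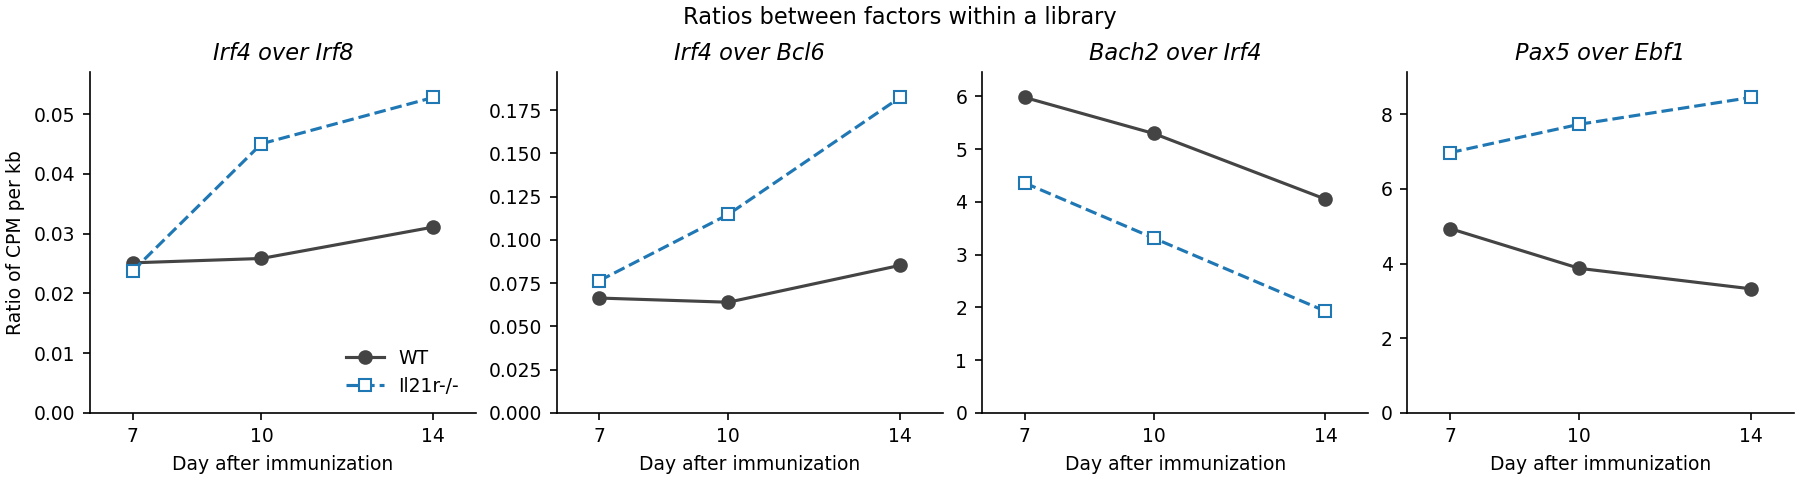
Ratios of CPM per kilobase between pairs of factors (vertical axes, each from 0) by day after immunization in WT (filled circles) and Il21r-/- (open squares), 1 library per point. Irf4 over Irf8 and Irf4 over Bcl6 reach 0.0528 and 0.182 in Il21r-/- on day 14, and Pax5 over Ebf1 lies above WT on each day.

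Genes downstream of the members or acting with them were taken from lists written from general knowledge of these factors. Earlier results of these data were known when the lists were chosen, so a share above that of all genes is not a test of a list. The lists are described by counts over 3 days (edgeR's quasi-likelihood test). Of 17 tested genes that Bcl-6 is known to repress, 7 were higher in *Il21r*-/- and 0 higher in WT, where 5.92% of all genes were called. The list median was −0.09. The 7 included *Gpr183*, the receptor EBI2 (log2 fold change −2.23, standard error 0.21, adjusted p = 0.00101), *Tlr7*, an RNA sensor (−2.09, adjusted p = 0.00407), *Cd80*, a costimulatory ligand (−2.00, adjusted p = 0.000976), and *S1pr1*, an exit receptor (−1.31, adjusted p = 0.000784), which was also called on day 7, as were *Gpr183* and *Cd80*. The others were *Bcl2*, *Cdkn1b* and *Cd69*. Some of these genes are also markers of memory, naive or LZ cells. The medians of all tested genes and of the Bcl-6 list differed by less than 0.1, the remaining 10 genes being spread on both sides of 0. With day as a block, 7 genes of the list were higher in *Il21r*-/- and 1 in WT, where 22.9% of all genes were called.

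Of 15 tested genes activated by Pax5, 4 were called, all higher in *Il21r*-/-, where 5.92% of all genes were called. Of the 15 fold changes, 14 were negative (median −0.36, against −0.01 for all genes). The 4 called genes were *Cd72*, an inhibitory coreceptor (−1.98, adjusted p = 0.00417), *Fcer2a*, the low affinity IgE receptor (−1.54, adjusted p = 0.00119), *Cd55*, a complement regulator (−1.26, adjusted p = 0.00304), and *Siglecg*, an inhibitory lectin (−0.48, adjusted p = 0.0244). *Fcer2a* and *Cd55* were also called on day 7, and *Cd72* was not called with day as a block (adjusted p = 0.129). *Fcer2a* is also in the list of naive or follicular B cell markers. With day as a block 9 of the 15 were called, all higher in *Il21r*-/-, where 22.9% of all genes were called. Of 15 listed genes repressed by Pax5, 8 were tested and 1 was called, against 5.92% of all genes. It was *Emb*, an adhesion molecule, higher in WT (1.03, adjusted p = 0.0107). The median of the 8 was −0.32, with 5 fold changes negative, the furthest being *Hsd11b1*, a steroid dehydrogenase (−1.29, adjusted p = 0.0511). With day as a block 2 were higher in WT and 3 in *Il21r*-/-, where 22.9% of all genes were called. Of 15 tested genes repressed by Blimp-1, 7 had positive fold changes, *Il21r* among them, and 8 negative ones (median −0.05). *Ccr7* (−1.81, adjusted p = 0.00322) and *Fcer2a*, both also naive or follicular B cell markers, were called, higher in *Il21r*-/-, where 5.92% of all genes were called. The only gene called higher in WT was *Il21r*, the deleted gene, whose direction was set by the deletion.

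The PC programme had no called gene among 14 tested (median −0.12), where 5.92% of all genes were called. With day as a block 5 of them were called, against 22.9% of all genes. Of these, 4 were higher in *Il21r*-/-, and *Prg2* was higher in WT (quasi-likelihood adjusted p = 0.0107). Of 24 genes of the unfolded protein response and Xbp1 programme, 1 was called, against 5.92% of all genes, and the list median was −0.06. It was *Pdia4*, a protein disulfide isomerase, higher in *Il21r*-/- (−0.43, adjusted p = 0.0342). With day as a block 5 of the 24 were called, all higher in *Il21r*-/-, a share near the 22.9% of all genes called in that fit. Of 21 other B cell identity factors and of 15 corepressors of Bcl-6 and Bach2, 0 were called (medians 0.04 and 0.08), with 5 and 2 called when day was a block, again against 22.9% of all genes. Of the zone lists, 5 of 12 LZ genes were called, all higher in *Il21r*-/- (list median −0.51), where 5.92% of all genes were called. *Ccl22* (−4.74, adjusted p = 0.000242), *Il4i1* (−1.21, adjusted p = 0.0139) and *Cd83* (−0.93, adjusted p = 0.00669) lay the furthest from 0. For the 12 DZ genes, all fold changes were positive (median 0.35), 0 were called, and 7 were called with day as a block, against 22.9% of all genes.

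**Figure D4:**
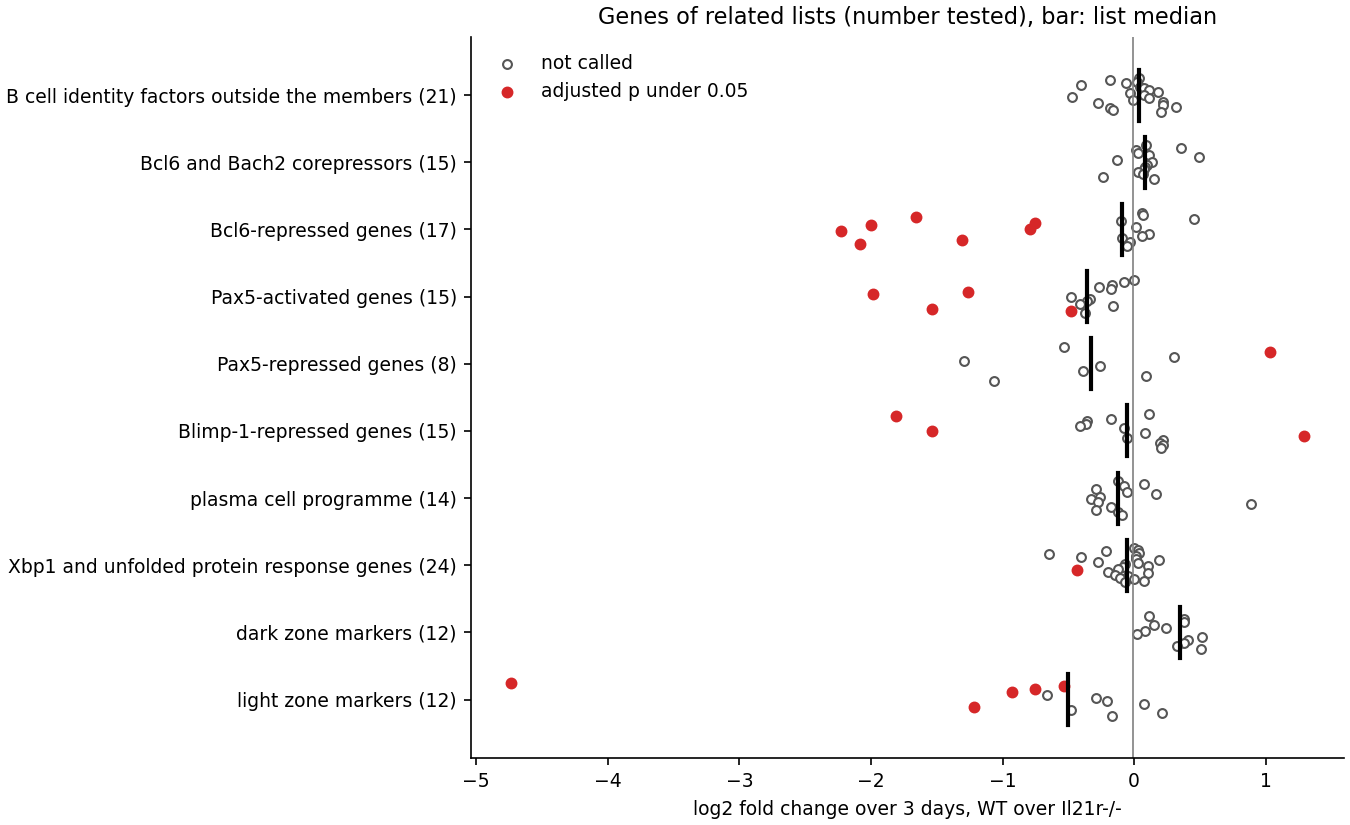
Log2 fold change over 3 days of WT over Il21r-/- (horizontal axis) for every tested gene of 10 lists (rows, number tested in parentheses), with called genes in red and list medians as black bars. The grey line is the median of all tested genes, and called genes of the Bcl6-repressed, Pax5-activated and LZ lists lie below 0.

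Among all named tested genes, those whose log2 CPM followed a member most closely over the 6 libraries were listed for *Prdm1*, *Bcl6* and *Irf4*, as a description over 6 points that share libraries. For *Prdm1* they were *Lrrc49* (Pearson's r = 0.999), *Usp44* (0.996) and *Pkm* (0.994), for *Bcl6* *Macroh2a1* (0.998), *Add1* (0.996) and *Galnt2* (0.994), and for *Irf4* *Pard6b* (0.980), *Trim32* (0.979) and *C1qtnf12* (0.974). *Lrrc49* had 22.4, 26.3 and 24.4 CPM in WT and 11.9, 15.1 and 16.1 in *Il21r*-/-, without overlap, as for *Prdm1*. *Trim32*, like *Irf4*, was level in WT (14.7, 14.3 and 13.9 CPM) and went from 14.9 to 19.0 and 20.4 CPM in *Il21r*-/-. Since the genes were picked for the highest r, their high r and their likeness to the member follow from the choice.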

How the data were processed

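The members and gene lists were chosen with earlier results of these data known, and the lists were written from general knowledge. The deposited values were whole-number read counts per gene. The authors aligned the single-end reads to mm10 with Rsubread and counted them with featureCounts on its inbuilt RefSeq models after pooling technical replicates, without normalization. Strand and multi-mapping settings are not given in the sources used here. Gene lengths (another deposited column, in bases) came with the counts. The series table and the files of single libraries held identical values (0 differences). No column lacked a sample (0). Symbols came from RefSeq GRCm38.p6 for 25275 of 27179 identifiers, and genes without a symbol (1.58 to 2.25% of the counts of a library) were kept.

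As in the study's methods, genes on the Y chromosome, genes of Ig variable regions, *Xist* and those averaging under 0 log2 CPM were removed. This left 11005 genes, fewer than the study states for its own filter. TMM factors were then computed (R 4.3.3, edgeR 4.0.16). The genotype effect over 3 days, the linear day trend and their interaction were each assessed by the quasi-likelihood test in edgeR. Single days were tested by edgeR's likelihood ratio test with a mean per day, 2 libraries a day and dispersions from genotype plus linear day (biological coefficient of variation 13.1%, 3 residual degrees of freedom). All 11005 genes entered the Benjamini-Hochberg adjustment of p, and a gene was called under 0.05. Log2 levels used a pseudocount of 0.5 CPM. p-values measure only the spread between these libraries. Lists had no set test. After the genotype mean was removed, libraries of the same day correlated across genes (r = 0.654, 0.465 and 0.669 for days 7, 10 and 14), so day, which the labels give, pairs the libraries, and the fit that blocks on day was one alternative. The others were DESeq2's size factors and Wald test (DESeq2 1.42.0), 2 other count filters, the removed genes kept, non-robust estimation, other forms of the day-wise fit, and leaving out each library. Scripts were tested on simulated counts. Named besides the members were *Il21r*, for each list up to 3 called genes with the largest fold change and those called on day 7, marker genes, and the 3 genes most alike in pattern. *Bcl2*, *Cdkn1b*, *Cd69*, *Siglecg*, *Hsd11b1*, *Mzb1*, *Tnfrsf17*, *Fkbp11*, *Prg2*, *Lck* and the overlapping genes were named after their values were seen.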

Additional observations from a re-analysis of the deposited data

How the results depend on the processing

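Of 734 alternative values of single members, 665 kept their direction and side of the threshold, most of them values that were not called before or after. In 20 a call was lost. Over 3 days *Prdm1* stayed called in 6 of 6 alternatives that kept all libraries and in 1 of 6 that left out a library. These counts were 7 of 7 and 2 of 6 for *Pax5*, and 5 of 7 and 1 of 6 for *Xbp1*. The count of members called over 3 days, 3, was 1 with a minimum of 10 counts, where *Prdm1* was not tested, 8 with day as a replicate block, and 0 to 7 without single libraries. The day 7 count, 1, was 0 with a minimum of 10 counts, with all genes of any count, with the removed genes kept and under DESeq2's Wald test, and 0 to 1 without single libraries (0 without WT on day 10). The day 10 count, 0, was 3 and the day 14 count, 0, was 1 with dispersions from the replicate block. With a linear day term in the day-wise fit they were 2 and 1, and without single libraries 0 to 2 on both days (2 on each without *Il21r*-/- on day 7, and 1 on day 14 without *Il21r*-/- on day 10). The count for the day trend, 0, was 5 with the block and 0 to 3 without single libraries (3 without *Il21r*-/- on day 10, where calls over all genes were 2177, against 488 with all libraries).

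Values that were not called changed sign. With all genes of any count the day 7 value of *Irf8* was 0.022. With the linear day term the day 7 values of *Irf4* and *Irf8* were −0.0937 and 0.00574 and the day 10 value of *Bach2* 0.26. Without single libraries the log2 fold change of *Spib* over 3 days ranged from −0.105 to 0.00785, and the day trend from −0.406 to 0.131 for *Pax5* and from −0.0735 to 0.257 for *Ebf1*. The difference in day trend ranged from −0.651 to 0.628 for *Bcl6*, −1.28 to 0.64 for *Bach2*, −1.52 to 0.022 for *Pax5*, −0.0763 to 0.201 for *Irf8*, −0.221 to 0.185 for *Xbp1*, −0.724 to 0.73 for *Mef2b* and −0.617 to 0.807 for *Ebf1*, none of them called. Depth limits *Prdm1*, which had 6 to 45 counts per library. The causes of these changes were not tested.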
